A study of Mus musculus with 12 samples.

Results

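Toll-like receptor and inflammasome genes were examined in RNA-seq of mouse spinal cord preparations made 4 days after demyelination. The 10 genes were taken from a fixed list and found by symbol in the count tables, as 10 of 54838 genes listed. They were the receptors *Tlr1*, *Tlr2*, *Tlr4* and *Tlr7*, the adaptor *Myd88*, the inflammasome components *Nlrp3*, *Pycard* and *Casp1*, and the cytokines *Il1b* and *Tnf*. All 10 passed the filter on low counts that left 31109 genes for testing.

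Control mice were Olig1+/+;Tet1fl/fl and Tet1 mutants were Olig1cre/+;Tet1fl/fl, so that floxed Tet1 alleles were present in every animal of every group. All mice were P60 and of either sex. Lesions were made by injecting lysolecithin, a detergent-like lipid that strips myelin, into the ventrolateral white matter of the spinal cord, and tissue was taken 4 days later (4dpl). Unlesioned tissue came from the contralateral side of the cord. There were 3 libraries in each of the 4 groups. Cells were enriched on a Percoll gradient and were not sorted, so every library held RNA of several cell types. Cre was driven from the Olig1 locus, which is active in the oligodendrocyte lineage, and recombination in microglia or other myeloid cells was not tested here.

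Toll-like receptors are innate immune sensors of microbial products and of molecules released by damaged cells. Most of them signal through the adaptor MyD88 to NF-κB, which drives transcription of cytokine genes such as *Tnf* and *Il1b* and of *Nlrp3*. NLRP3 in turn assembles with the adaptor ASC, encoded by *Pycard*, and with caspase-1, and the active caspase cuts the precursor of interleukin-1β into its secreted form. In the central nervous system these genes are best known from microglia and infiltrating myeloid cells, which also clear myelin debris after demyelination. Reads from whole preparations measure transcripts only and say nothing of receptor engagement or of caspase activity.

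RefSeq promoter windows of build GRCm38.p6 (250 bases before each start site) were matched for 8 of the 10 genes, *Tlr4* and *Tlr7* being the genes without an entry, and gave 10 windows because *Tlr1* and *Nlrp3* have 2 start sites each. Shown here are *Tlr1*, *Tlr2* and *Tnf*, which rose after lesion over both genotypes, and *Il1b*, which was not called, each as the part of its window (for *Tlr1*, that of the upstream start site) outside every exon of the annotation used for counting. In this build the genes not shown lie at chr4:66827584-66930284 (*Tlr4*), chrX:167304929-167330558 (*Tlr7*), chr9:119335934-119341411 (*Myd88*), chr11:59541568-59566956 (*Nlrp3*), chr7:127989708-127993867 (*Pycard*) and chr9:5298517-5307265 (*Casp1*). The 4 shown lie on the minus strand and are written 5′ to 3′ in the direction of transcription. Capitals mark the PU.1 core GAGGAA or its reverse complement in *Tlr1* and *Tnf*, and a pair of overlapping matches to the κB consensus in *Tlr2*.
Tlr1, chr5:64933564-64933808: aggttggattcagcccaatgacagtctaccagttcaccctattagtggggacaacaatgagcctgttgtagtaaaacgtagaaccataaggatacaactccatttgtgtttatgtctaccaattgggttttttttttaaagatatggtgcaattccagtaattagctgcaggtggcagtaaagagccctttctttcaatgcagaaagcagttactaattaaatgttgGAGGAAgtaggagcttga
Tlr2, chr3:83841768-83841858: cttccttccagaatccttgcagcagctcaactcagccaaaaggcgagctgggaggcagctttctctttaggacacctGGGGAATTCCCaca
Tnf, chr17:35202008-35202257: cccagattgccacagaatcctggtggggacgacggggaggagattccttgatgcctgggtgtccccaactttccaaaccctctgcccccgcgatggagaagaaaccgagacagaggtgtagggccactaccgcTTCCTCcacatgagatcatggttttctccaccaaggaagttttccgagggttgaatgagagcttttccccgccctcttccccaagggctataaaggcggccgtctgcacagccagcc
Il1b, chr2:129371140-129371389: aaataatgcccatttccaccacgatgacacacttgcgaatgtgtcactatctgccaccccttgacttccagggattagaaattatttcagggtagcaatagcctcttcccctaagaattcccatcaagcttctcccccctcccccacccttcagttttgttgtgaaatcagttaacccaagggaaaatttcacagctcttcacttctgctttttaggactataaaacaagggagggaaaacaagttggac

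PU.1 is a transcription factor of the myeloid lineage. Its core GAGGAA, searched on both strands, was found in 5 of the 10 windows (1 each of *Tlr1*, *Nlrp3*, *Pycard*, *Casp1* and *Tnf*), and 23.3% of 32851 promoter windows of the same length held it. The second windows of *Tlr1* and *Nlrp3* did not hold it. The κB consensus, the sequence bound by NF-κB, was found in 2 of the 10 windows (*Tlr2* and 1 of *Nlrp3*), against 3.9% of all windows. The AP-1 motif TGANTCA was found in 0 of the 10 and in 6.75% of all windows. These matches describe letters in a window and do not show binding.

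Library totals ranged from 34805086 to 67251544 counts, and each of the 10 genes was covered by at least 399 counts in every library. Levels are given in CPM, a count relative to the size of its library, with library sizes adjusted by the trimmed mean of M values (TMM). *Tet1* itself, counted over all its exons and not over the deleted one alone, measured 11.7 to 18.3 CPM in controls and 9.94 to 21.5 CPM in mutants, so the gene-level count did not separate the genotypes. All 10 microglial marker genes fixed for the analysis were counted in all 12 libraries, and their summed level was 2810 to 5859 CPM in unlesioned controls, 9724 to 16594 CPM in controls at 4dpl, 3041 to 10445 CPM in unlesioned mutants and 9435 to 15085 CPM in mutants at 4dpl. The 10 neutrophil markers, also counted everywhere, summed to between 21773 and 119551 CPM, more than the microglial sum in each library. Oligodendrocyte markers, which the preparation was made to enrich, summed to 14938 to 71558 CPM. Markers of infiltrating macrophages summed to 2515 to 7193 CPM in unlesioned controls and 2720 to 3515 CPM in controls at 4dpl. In mutants they summed to 1977 to 7327 CPM unlesioned and 1857 to 6928 CPM at 4dpl, so the sums overlapped in both genotypes. Single markers of this list changed in both directions, as given below. Unlesioned control replicate 1 stood apart from its group, with 407 CPM of *Arg1* against 15.0 and 20.3 CPM in the other 2 libraries. It also held 644 CPM of *Il1rn* against 46.8 and 36.6 CPM. In *Gpnmb* it was unlesioned control replicate 3 that stood apart, with 805 CPM against 148 and 19.8 CPM. The unlesioned mutant libraries held 228, 18.3 and 444 CPM of *Gpnmb*. Mutant 4dpl replicate 3 stood apart as well, with 71558 CPM of oligodendrocyte markers against 26536 and 29918 CPM and 623 CPM of *Olig1* against 192 and 233 CPM, and it held the lowest level of its group for 9 of the 10 genes, *Tlr1* being the exception.

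The 4 receptors were more abundant after lesion in controls, with no overlap between the libraries of the 2 groups. *Tlr7*, the endosomal receptor for single-stranded RNA, measured 37.9, 15.0 and 41.6 CPM in the 3 unlesioned control libraries and 114, 103 and 122 CPM at 4dpl. In mutants it measured 76.2, 22.7 and 35.1 CPM unlesioned and 139, 96.8 and 75.5 CPM at 4dpl, where the highest unlesioned library lay just above the lowest lesioned one. *Tlr1*, which pairs with TLR2 to recognise bacterial lipopeptides, measured 24.4, 8.48 and 15.4 CPM in unlesioned controls and 43.4, 43.7 and 49.7 CPM at 4dpl. The mutant libraries of *Tlr1* held 27.3, 12.1 and 18.5 CPM unlesioned and 45.2, 31.4 and 34.3 CPM at 4dpl. *Tlr1* was the single gene of the 10 whose 6 lesioned libraries all lay above all 6 unlesioned ones, and 7.44% of all genes tested were separated in that way and direction.

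*Tlr2*, the most abundant of the receptors, measured 474, 147 and 230 CPM in unlesioned controls and 538, 623 and 696 CPM at 4dpl. In mutants the values were 336, 201 and 266 CPM unlesioned and 578, 545 and 342 CPM at 4dpl, the lowest lesioned library standing only slightly above the highest unlesioned one. *Tlr4*, the receptor for lipopolysaccharide, measured 46.5, 9.88 and 20.7 CPM in unlesioned controls and 71.0, 57.2 and 53.9 CPM at 4dpl. Its mutant libraries held 36.2, 23.0 and 29.0 CPM unlesioned and 53.5, 53.3 and 40.4 CPM at 4dpl. For all 4 receptors, replicate 1 was the highest or near the highest library of the unlesioned group in controls, and replicate 2 the lowest in both genotypes. The adaptor *Myd88* differed from the receptors in showing no separation, with 187, 93.8 and 81.9 CPM in unlesioned controls against 143, 160 and 149 CPM at 4dpl. In mutants *Myd88* measured 97.5, 153 and 136 CPM unlesioned and 121, 157 and 116 CPM at 4dpl.

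**Figure D1:**
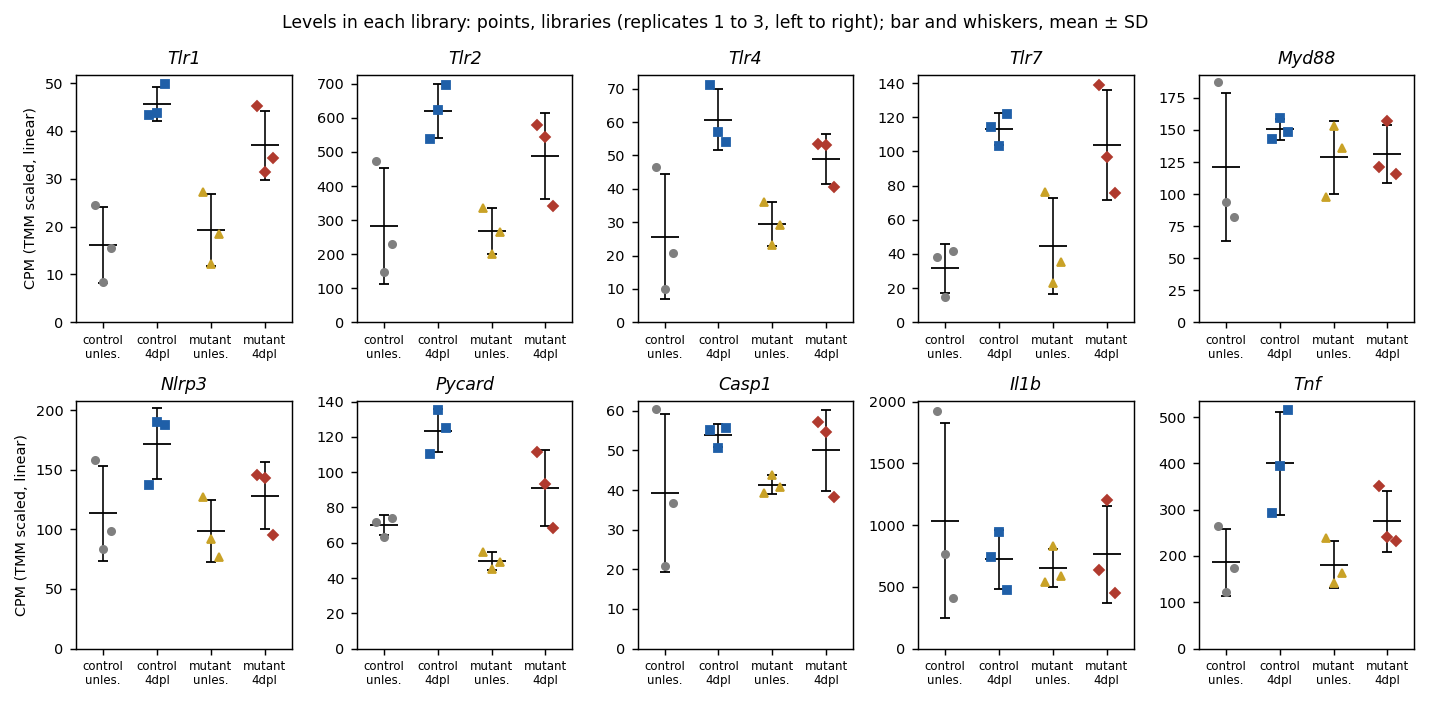
Level of each of the 10 genes in every library, in TMM-scaled CPM on a linear axis that starts at 0, for 3 libraries in each of the 4 groups, with the mean ± SD as a bar with whiskers. *Pycard* and the 4 receptors stand higher at 4dpl in both genotypes, although for *Tlr7* 1 unlesioned mutant library (76.2 CPM) lies within the lesioned range, whereas *Il1b* shows its highest library (1923 CPM) among unlesioned controls.

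Among the inflammasome genes, *Pycard* was the one that separated lesioned from unlesioned libraries in each genotype. It measured 71.9, 63.5 and 74.3 CPM in unlesioned controls and 111, 135 and 125 CPM at 4dpl. In mutants it measured 54.9, 45.1 and 49.0 CPM unlesioned and 112, 93.4 and 68.6 CPM at 4dpl. Its 3 unlesioned libraries varied less within each genotype than those of the receptors, with an SD of 5.65 CPM in controls and 4.94 CPM in mutants. The sensor *Nlrp3* measured 158, 83.6 and 98.3 CPM in unlesioned controls and 137, 190 and 187 CPM at 4dpl, and the groups overlapped through unlesioned replicate 1. In mutants *Nlrp3* measured 127, 92.1 and 76.8 CPM unlesioned and 146, 143 and 95.6 CPM at 4dpl. The protease gene *Casp1* measured 60.4, 20.7 and 36.7 CPM in unlesioned controls and 55.1, 50.6 and 55.7 CPM at 4dpl, so that its highest control library was an unlesioned one. Its mutant libraries held 39.1, 43.9 and 40.8 CPM unlesioned and 57.1, 54.6 and 38.3 CPM at 4dpl.

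The cytokines did not move together. *Tnf*, encoding tumour necrosis factor, measured 265, 121 and 173 CPM in unlesioned controls and 293, 394 and 515 CPM at 4dpl, without overlap. In mutants it measured 239, 141 and 163 CPM unlesioned and 350, 242 and 233 CPM at 4dpl, where the lowest lesioned library lay just under the highest unlesioned one. *Il1b*, encoding the interleukin-1β precursor, measured 1923, 770 and 412 CPM in unlesioned controls and 741, 947 and 477 CPM at 4dpl. In mutants *Il1b* measured 543, 828 and 590 CPM unlesioned and 634, 1204 and 451 CPM at 4dpl. The groups overlapped in both genotypes, and the 3 unlesioned control libraries alone spanned more than the 4 group means, which lay between 653 and 1035 CPM.

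To ask how these genes respond to demyelination in control tissue, 4dpl was compared with unlesioned controls. *Tlr1*, *Tlr7*, *Pycard* and *Tnf* rose. On the log2 scale *Tlr7* differed by 1.84 (SE 0.44; adjusted p = 0.0319), a 3.59-fold difference, and *Tlr1* by 1.50 (SE 0.35; adjusted p = 0.0318), or 2.83-fold. *Tnf* differed by 1.10 (SE 0.33; adjusted p = 0.0498) and *Pycard* by 0.82 (SE 0.22; adjusted p = 0.0389). With a call defined as p under 0.01 and an adjusted p under 0.05 in edgeR's quasi-likelihood test, 4 of the 10 genes were called, all higher, against 10.1% of all genes tested called in either direction and 5.12% called higher. *Tlr4* at 1.24 (SE 0.40; adjusted p = 0.0610) and *Tlr2* at 1.13 (SE 0.38; adjusted p = 0.0671) were of similar size but missed the adjusted threshold. *Nlrp3* (0.60), *Casp1* (0.45), *Myd88* (0.32) and *Il1b* (-0.52) had 95% intervals that included 0. The median over the 10 genes was 0.96 where that of all genes was -0.36, and 9 of the 10 lay above 0 where 39.1% of all genes did. Counting libraries rather than fits, 6 of the 10 (the 4 receptors, *Pycard* and *Tnf*) were higher in every lesioned than in every unlesioned control library, against 16.5% of all genes.

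These calls depended on whether samples were paired and on single libraries. With a replicate block by the study's own sample number 4 of the 10 were called (3.22% of all genes). There *Pycard* and *Tnf* lost their call, and *Tlr2* and *Tlr4* gained one. Without unlesioned control replicate 1, 9 of the 10 were called, *Il1b* being the exception, against 21.8% of all genes. Without unlesioned control replicate 2 or 3, or without control 4dpl replicate 1 or 2, the count was 0, and in those fits between 1 and 114 genes of the whole table were called. Without control 4dpl replicate 3, mutant unlesioned replicate 3 or mutant 4dpl replicate 2 it was 2, *Tlr1* and *Tlr7* (5.41%, 2.7% and 5.94% of all genes). Without mutant unlesioned replicate 2, mutant 4dpl replicate 1 or mutant 4dpl replicate 3 it was 3, *Tnf* losing its call (8.48%, 6.44% and 10.2%). Without mutant unlesioned replicate 1 it stayed at 4 (8.66%). The log2 difference of *Tlr7* in controls stayed above 0 in each of these fits, as did those of *Tlr1*, *Pycard* and *Tnf*, while that of *Il1b* became 0.32 without unlesioned control replicate 1.

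The same comparison in Tet1 mutants gave smaller differences than in controls for 8 of the 10 genes, where 54.8% of all genes had a higher one. None of the 10 reached an unadjusted p under 0.05 in the interaction test given below. In mutants none of the 10 was called, against 0.135% of all genes called. All 10 differences lay above 0 (45% of all genes did), with a median of 0.67 against -0.18 over all genes. *Tlr7* differed by 1.21 (SE 0.43; adjusted p = 0.0853), *Tlr1* by 0.94 (SE 0.35; adjusted p = 0.0948) and *Tlr2* by 0.87 (SE 0.38; adjusted p = 0.130). *Pycard* was the gene nearest to a call, with 0.88 (SE 0.22; adjusted p = 0.0544), and it was the 1 gene of the 10 called by DESeq2 (17% of all genes called) and by limma with voom (2.85%). At an unadjusted p under 0.05, 4 of the 10 were higher (*Tlr1*, *Tlr2*, *Tlr7* and *Pycard*), against 15.9% of all genes. *Tlr1*, *Tlr2*, *Tlr4* and *Pycard* were higher in every lesioned than in every unlesioned mutant library, against 18.8% of all genes. The signs of *Myd88* (0.03), *Nlrp3* (0.38), *Casp1* (0.28) and *Il1b* (0.22) depended on the scaling, since with CPM of total counts the log2 difference of mutant means was -0.44 for *Myd88*, -0.10 for *Nlrp3*, -0.23 for *Casp1* and -0.36 for *Il1b*. That scaling moved every gene by -0.48 in mutants and by -0.32 in controls relative to TMM. Without mutant unlesioned replicate 1, 3 of the 10 were called (*Tlr1*, *Tlr7* and *Pycard*; 10.2% of all genes), and without control unlesioned replicate 1, which belongs to neither group compared but was part of the same fit, 3 were called (*Tlr1*, *Tlr2* and *Pycard*; 13.3% of all genes). Without mutant 4dpl replicate 3 the count stayed at 0, with a median of 0.81 over the 10 genes.

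**Figure D2:**
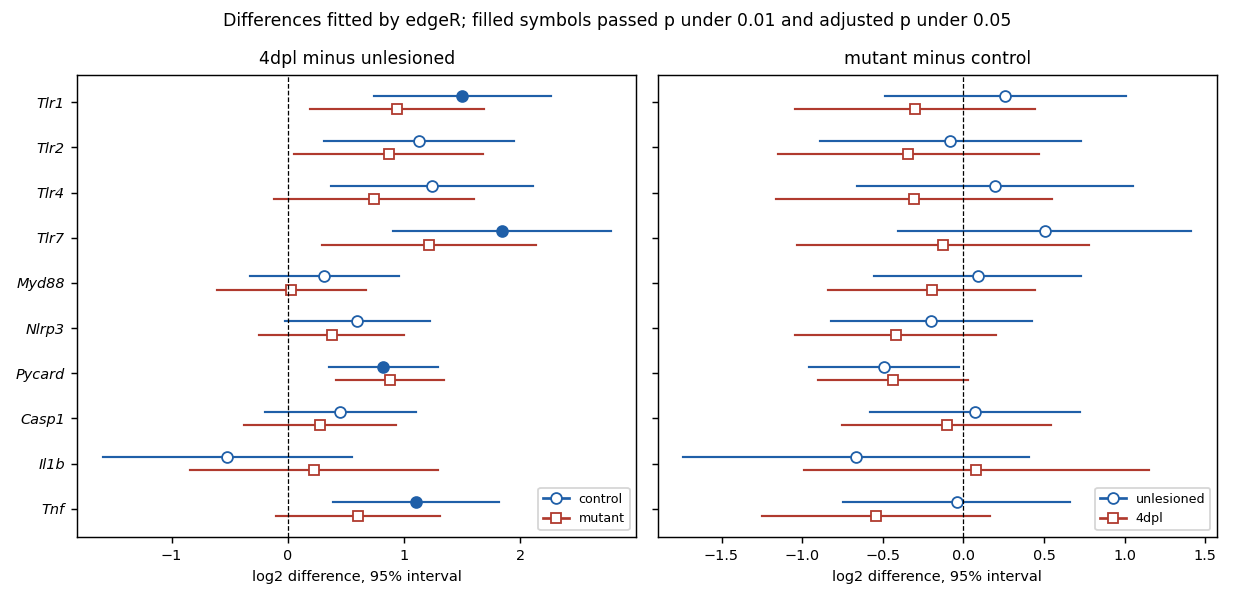
Fitted log2 differences with 95% intervals for the 10 genes, 4dpl minus unlesioned on the left for control (circles) and mutant (squares), and mutant minus control on the right for unlesioned (circles) and 4dpl (squares). Filled symbols mark the 4 calls, all in the control lesion comparison, and every interval on the right includes 0 except that of *Pycard* in unlesioned tissue.

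Averaged over both genotypes, 6 libraries against 6, the lesion comparison gave 6 calls of 10, all higher, where 32.8% of all genes were called and 14.2% were called higher. *Tlr7* differed by 1.53 (SE 0.31; adjusted p = 0.00453), *Tlr1* by 1.22 (SE 0.25; adjusted p = 0.00478), *Tlr2* by 0.997 (SE 0.27; adjusted p = 0.0127) and *Tlr4* by 0.99 (SE 0.28; adjusted p = 0.0165). *Pycard* differed by 0.85 (SE 0.15; adjusted p = 0.00337) and *Tnf* by 0.85 (SE 0.23; adjusted p = 0.0137). All 4 receptors thus rose, together with 1 of the 3 inflammasome components and 1 of the 2 cytokines. *Nlrp3* at 0.49 (SE 0.21; adjusted p = 0.0706), *Casp1* at 0.36 (SE 0.21; adjusted p = 0.177), *Myd88* at 0.17 (SE 0.21; adjusted p = 0.519) and *Il1b* at -0.15 (SE 0.35; adjusted p = 0.749) were not called. The 6 called genes were called in every fit that left out 1 library, where 23.6% to 38% of all genes were called. *Nlrp3* and *Casp1* joined them without unlesioned control replicate 1, the fit with 38%.

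The genotypes were then compared directly. In unlesioned tissue 0 of the 10 genes were called by edgeR, DESeq2 or limma with voom, and edgeR called 0% of all genes, DESeq2 0.145%. *Pycard* was lower in each unlesioned mutant library (45.1 to 54.9 CPM) than in each unlesioned control library (63.5 to 74.3 CPM), with a log2 difference of -0.49 (95% interval -0.96 to -0.03; adjusted p = 0.927 in edgeR), and 6.28% of all genes were lower without overlap. It was the 1 gene of the 10 at an unadjusted p under 0.05, where 3.5% of all genes were lower. At 4dpl edgeR again called 0 of the 10 and 0% of all genes. Its unadjusted p was under 0.05 for 0 of the 10, where 5.15% of all genes were higher and 1.77% lower. DESeq2 also called 0 of the 10 at 4dpl, while calling 0.73% of all genes. There 9 of the 10 differences lay below 0 where 53.9% of all genes lay above 0, the exception being *Il1b* at 0.08, with *Tnf* at -0.54 (95% interval -1.25 to 0.16), *Pycard* at -0.44 (-0.90 to 0.03) and *Nlrp3* at -0.42 (-1.05 to 0.20). *Tlr4* was lower in every mutant than in every control library at 4dpl, as were 5.44% of all genes, with a difference of -0.31 (95% interval -1.16 to 0.55). Its highest mutant library (53.5 CPM) lay only slightly below its lowest control library (53.9 CPM).

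Whether the change after lesion differed between genotypes was tested as an interaction, and none of the 10 was called by edgeR, DESeq2 or limma with voom, 0 of the 10 reaching an unadjusted p under 0.05. Of all genes, edgeR called 0%, while 2.66% were higher and 1.14% lower at an unadjusted p under 0.05. The 95% intervals were wide, reaching from -1.91 to 0.65 for *Tlr7*, from -1.62 to 0.49 for *Tlr1*, from -1.50 to 0.49 for *Tnf* and from -0.77 to 2.26 for *Il1b*. The narrowest was that of *Pycard*, from -0.60 to 0.71 around an estimate of 0.06. The calls made in controls and not in mutants were therefore not shown to differ between genotypes.

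The other genes of these pathways were listed by role and counted in the same fits. Of 72 such genes, 9 were called higher and 0 lower after lesion in controls (5.12% of all genes were called higher), with a median of 0.53 against -0.36 over all genes. In mutants 0 were called (0.135% of all genes in either direction), with a median of 0.53 against -0.18. Over both genotypes 31 were called higher and 0 lower (14.2% of all genes higher), with a median of 0.57 against -0.28. Of the 16 receptors and co-receptors, 10 rose over both genotypes, to be read against that 14.2%. *Cd36*, a scavenger receptor that also serves TLR2 complexes, had the largest difference at 2.01 (SE 0.42, adjusted p = 0.00520). It measured 75.7, 22.5 and 31.5 CPM in unlesioned controls against 245, 198 and 88.7 CPM at 4dpl. In mutants *Cd36* measured 29.6, 18.0 and 18.4 CPM unlesioned and 146, 93.2 and 21.6 CPM at 4dpl, with overlap. The endosomal receptors *Tlr3*, *Tlr8* and *Tlr13* rose by 1.29, 1.27 and 1.07, as did *Tlr6*, the other partner of TLR2, by 0.78. *Unc93b1*, which carries nucleic-acid-sensing receptors to endosomes, rose by 0.80 and *Ly96*, the MD-2 subunit of the TLR4 complex, by 0.78. *Cd180* and its partner *Ly86* rose by 1.26 and 1.19. *Tlr5*, *Tlr9*, *Tlr11*, *Tlr12*, *Lbp* and *Cd14* were not called.

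Among the 26 signalling genes, 11 rose over both genotypes, where 14.2% of all genes did. The adaptors of the MyD88-independent branch, *Ticam1* (TRIF) and *Ticam2* (TRAM), rose by 0.75 and 1.07, while *Tirap*, which bridges receptors to MyD88, was not called. *Irak1*, *Irak2* and *Traf6*, which act downstream of MyD88, rose by 0.58, 0.84 and 0.85, and *Tab1*, a partner of the kinase TAK1, rose by 0.68. The NF-κB inhibitor gene *Tnfaip3* rose by 0.998, and the NF-κB subunit genes *Nfkb1*, *Nfkb2*, *Rela* and *Relb* were not called.

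Of 16 further inflammasome genes 8 rose, where 14.2% of all genes did, among them *P2rx7*, the ATP-gated channel that triggers NLRP3, by 1.11 (SE 0.20; adjusted p = 0.00337) and *Nek7*, an NLRP3 partner, by 1.14 (SE 0.21; adjusted p = 0.00356). The DNA sensor *Aim2* rose by 0.84 and the flagellin sensor *Naip5* by 0.87. *Gsdmd*, the pore-forming substrate of caspase-1, and *Casp4* were not called. Of 14 cytokine genes and receptors 2 rose, a share near the 14.2% of all genes. They were *Adam17*, the protease that sheds tumour necrosis factor from the cell surface, at 1.32 (SE 0.29; adjusted p = 0.00582) and *Tnfrsf1b*, a receptor for it, at 1.08 (SE 0.30; adjusted p = 0.0143). *Il1a*, encoding interleukin-1α, differed by 0.87 (SE 0.31; adjusted p = 0.0395) and was not called, its p lying above 0.01. *Il18* and the interleukin-1 receptor genes *Il1r1* and *Il1r2* were not called.

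**Figure D3:**
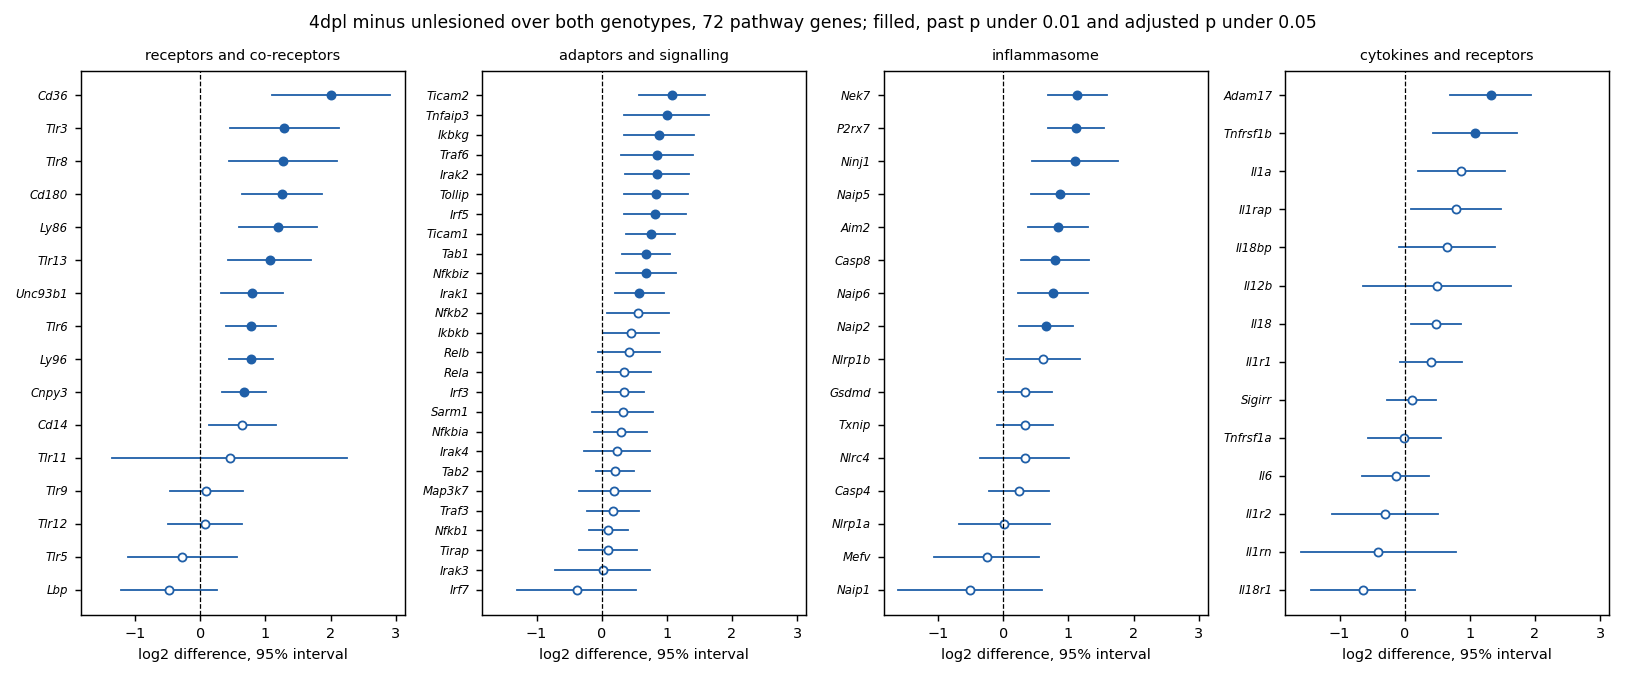
Log2 differences with 95% intervals for 72 further pathway genes, 4dpl minus unlesioned over both genotypes, sorted within 4 roles. Filled points mark the 31 calls, all above 0, of which 10 are receptors and co-receptors, 11 signalling genes, 8 inflammasome genes and 2 cytokine genes or receptors.

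Compared per kilobase of exon, the median level over the 12 libraries was highest for *Il1b* at 361 CPM per kb, followed by *Tnf* at 147 and *Tlr2* at 135 CPM per kb. *Myd88* followed at 54.1 CPM per kb, then *Nlrp3* at 32.6, *Casp1* at 31.5, *Pycard* at 19.2 and *Tlr7* at 18.6 CPM per kb. *Tlr1* at 8.77 and *Tlr4* at 7.82 CPM per kb were the lowest. The ranges of *Tnf* and *Tlr2* overlapped in each of the 4 groups, so their order was not resolved, and the same held for *Nlrp3* and *Casp1*. *Il1b* lay above *Tnf* without overlap in 3 of the groups and overlapped it in controls at 4dpl. *Tlr7* had the widest range, with its highest library 9.27 times its lowest, and *Myd88* the narrowest at 2.28 times.

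These 10 genes are not specific to the oligodendrocyte lineage, and in such mixed RNA fewer cells of a type cannot be told apart from less RNA per cell. The mean log2 level of the microglial list was higher at 4dpl by 1.58 in controls and by 1.01 in mutants, and 8 of its 10 markers were called higher over both genotypes, where 14.2% of all genes were. The mean of the neutrophil list differed by -1.24 in controls and by -0.56 in mutants. Over both genotypes 1 of its 10 markers was called, lower, where 18.6% of all genes were called lower. Of 10 infiltrating macrophage markers 3 were called higher and 1 lower, and of 5 fibroblast markers 2 and 1. Higher calls went to 4 of 6 oligodendrocyte progenitor, 2 of 8 astrocyte and 2 of 10 oligodendrocyte markers, and 1 of 6 neuron markers was lower. No endothelial or lymphocyte marker was called. In controls the median log2 difference was 1.76 for the progenitor list and 1.50 for the microglial list. As deviations from group means over the 12 libraries, which share their depth and composition, *Tlr7*, *Tlr1* and *Tnf* followed the microglial list (Pearson r = 0.89, 0.83 and 0.80). *Il1b* and *Myd88* followed it least (r = -0.33 and -0.30) and moved instead with the neutrophil list (r = 0.62 and 0.63). Without the 2 farthest libraries the microglial r was -0.27 for *Il1b* and 0.03 for *Myd88*, and the neutrophil r was 0.56 and 0.54. The library with the most *Il1b*, unlesioned control replicate 1, held 95193 CPM of neutrophil markers and 4950 CPM of microglial markers. It also stood apart in *Arg1* and *Il1rn*. Mutant 4dpl replicate 2, with the next highest *Il1b*, held 108543 and 9435 CPM. Other libraries did not follow this order. The most neutrophil markers, 119551 CPM, were in mutant unlesioned replicate 2, with 828 CPM of *Il1b*. Unlesioned control replicate 2 held 99293 CPM of them with 770 CPM of *Il1b*. Control 4dpl replicate 2 held 29342 CPM with 947 CPM of *Il1b*. The part of these cell types in the lesion differences was not tested.

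Set against the mean CPM of the microglial list in the same library, the mean log2 ratio was lower at 4dpl than in unlesioned tissue for 8 of the 10 genes in controls and 9 of the 10 in mutants, as it was for 98.3% and 95.5% of the 24076 genes counted in all 12 libraries. *Tlr7* had a higher mean ratio in both, by 0.39 and 0.34 on the log2 scale, and *Tlr1* was nearly level at 0.05 and -0.01, with overlapping libraries in each case. *Il1b* had the most negative ratio difference in controls at -1.87, with overlapping libraries, and *Myd88* that in mutants at -0.97. *Casp1*, *Nlrp3* and *Pycard* were lower without overlap in controls, by -0.998, -0.94 and -0.76, where 67% of all these genes were, and no gene was in mutants, where 23.7% were. With *Csf1r* alone as the denominator, 6 of the 10 were lower without overlap in controls (*Myd88*, *Il1b* and *Tnf* in addition), where 69.9% of all these genes were, and *Tlr7* was again the highest, at 0.36 and 0.39.

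**Figure D4:**
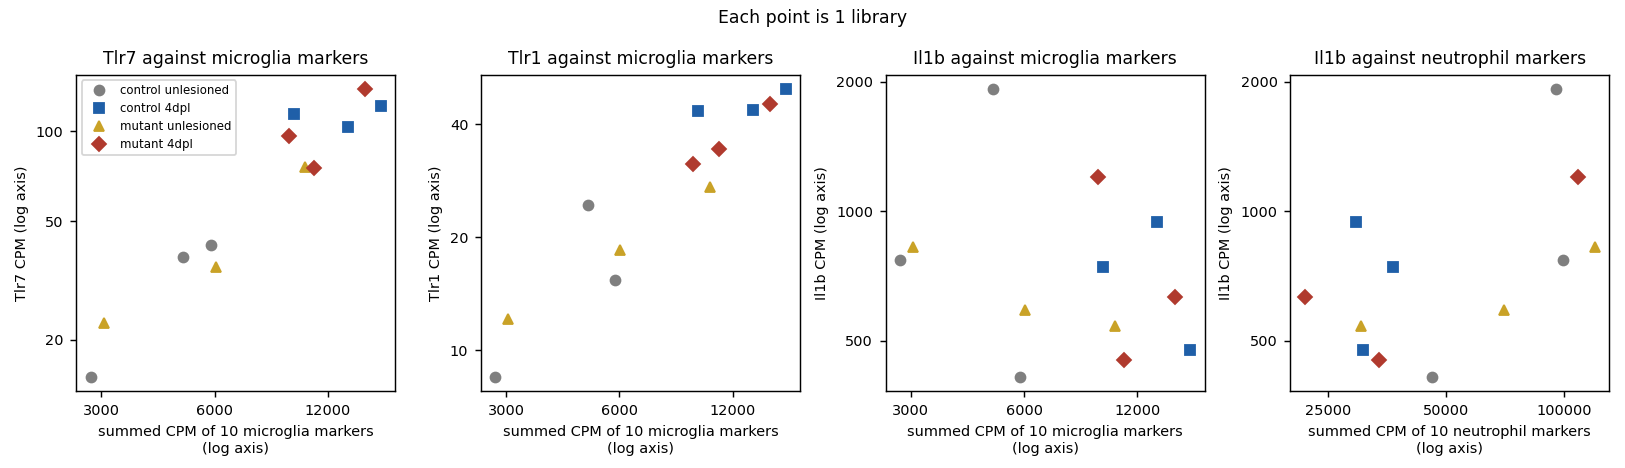
CPM of *Tlr7*, *Tlr1* and *Il1b* against the summed CPM of 10 microglial markers, and of *Il1b* against 10 neutrophil markers, on log axes with 1 point per library and 4 symbols for the groups. *Tlr7* and *Tlr1* climb with the microglial sum across all 4 groups. The *Il1b* libraries of 1923 and 1204 CPM lie towards the high end of the neutrophil sum, but so do those of 828 and 770 CPM. The *Il1b* library of 947 CPM lies near its low end.

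Within the 10 genes, the correlation of log2 CPM over the 12 libraries was highest for *Tlr1* with *Tlr7* (r = 0.97) and lowest for *Il1b* with *Tlr7* (r = -0.15). Among 13604 genes at a mean log2 CPM of at least 1, the pattern most like *Tlr1* was that of *Adam9* (r = 0.996), and the most like *Tlr2* was *B2m* (r = 0.992). *Uap1l1* was most like *Pycard* (r = 0.993) and *Sik1* most like *Il1b* (r = 0.943). Such values are maxima over many genes in the same 12 libraries and are given as a description.

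Some counts may have gained or lost reads through a neighbour. Of the 100-base windows of *Tlr1* transcripts, 7.89% also occur in *Tlr6*. *Pycard* shares 12.8% of its exon bases with *Gm45205* and *Myd88* 11.3% with *Acaa1a*, both on the opposite strand, and *Il1b* shares 1.31% with *Il1bos*. Whether the counting used strand is not given in the sources used here, so reads in these stretches cannot be assigned to either gene.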

How the data were processed

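RNA from 12 Percoll-enriched spinal cord preparations (3 per group) was sequenced as 100 bp paired-end reads. The authors counted uniquely mapped reads over exons with featureCounts and deposited raw counts per gene. The methods name BWA as aligner where the submitters' processing notes list STAR and DESeq2 1.2.5, both with mm10, so the aligner behind the counts is not settled. The deposited gene lengths were used for CPM per kb.

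The test was edgeR's (version 4.0.16, under R 4.3.3; filterByExpr, TMM, glmQLFit and glmQLFTest) in 1 fit of all 12 libraries, with Benjamini-Hochberg adjustment over 31109 genes. Calls required p under 0.01 and adjusted p under 0.05. Symbols came from an annotation table and matched 54723 of 54838 genes. Counts of the 37 mitochondrial genes were 0 in each library, so no mitochondrial share could be given. Scripts were tested on simulated data. DESeq2 1.42.0, limma 3.58.1 with voom, other normalizations, filters and thresholds, replicate blocks and leaving out each library were alternatives. Where the labels do not say that libraries came from separate animals, p-values measure the spread between these libraries.

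The 10 genes, the pathway genes and the marker lists were chosen with earlier results of these data known. All 10 genes were named. Pathway genes were counted by role, and those named by rule were the genes called in the control or the mutant lesion comparison (up to 5 per role) and, per role, the 3 with the smallest p over both genotypes. Other pathway genes were named after their values were seen. Correlations carry no test.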

Additional observations from a re-analysis of the deposited data

How the results depend on the processing

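Over both genotypes the count of called genes was 6 of 10 in every alternative except 8 without unlesioned control replicate 1. The range was thus 6 to 8 when leaving out each library. Of all genes, 39.4% were called with DESeq2, 34.6% with limma with voom and 25.7% with no filter. With the replicate block by the study's own sample number 17% were called, and 23.6% to 38% when leaving out each library. In controls the count was 4. It was 6 with DESeq2 (22.5% of all genes called), edgeR's newer quasi-likelihood option (19.1%), limma with voom (12.8%) or no filter (7.02%), 5 with an adjusted p under 0.10 (15.2%), 4 with RLE size factors (10.4%), 2 when the fit held only the groups compared (4.52%), and 0 to 9 when leaving out each library. In mutants the count was 0. It was 1 (*Pycard*) with DESeq2 (17% of all genes called), the newer option (14.2%), limma with voom (2.85%) or an adjusted p under 0.10 (12.8%), and 0 to 3 when leaving out each library. Over the whole table edgeR called 3150 genes in controls and 42 in mutants, where DESeq2 called 6996 and 5295. Between genotypes and in the interaction it was 0 in each alternative run. The cause of these differences was not tested. Samples sharing a replicate number in the labels did not deviate together (r = -0.07 to 0.19 over 6 pairs), nor did those sharing the study's own sample number (r = -0.09 to -0.02 over 4 pairs), so the numbers were not taken to pair the samples. With the replicate block by label number 6 of 10 were called in controls (12.4% of all genes). With the block by the study's number 4 of 10 were called (3.22%), namely *Tlr1*, *Tlr2*, *Tlr4* and *Tlr7*, so that *Pycard* and *Tnf* lost their call and *Tlr2* and *Tlr4* gained one. Neither block gave a call in mutants or in the interaction.

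The signs of small differences changed. The mutant lesion difference of *Myd88* (0.03) was -0.11 with DESeq2, -0.11 with RLE size factors, -0.20 in the groups compared only, -0.043 with the replicate block by the study's number, and -0.10 to 0.19 when leaving out each library. That of *Il1b* (0.22) was -0.018 in the groups compared only, -0.33 with the replicate block by the study's number and -0.24 to 0.52 when leaving out each library. In controls *Il1b* (-0.52) was 0.57 with that replicate block and -0.89 to 0.32 when leaving out each library, and over both genotypes (-0.15) it was 0.12 and -0.37 to 0.28. At 4dpl the genotype difference ranged from -0.41 to 0.35 for *Il1b* and from -0.21 to 0.053 for *Casp1* and from -0.39 to 0.057 for *Tlr7* when leaving out each library. RLE size factors moved the median of all genes by -0.14 in the mutant lesion comparison. Each of the 10 genes had at least 399 counts in each library, and the effect of depth on the calls was not tested.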
